A study of Mus musculus with 24 samples.

Results

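The potassium channel genes outside the transient outward current were taken as all array probes whose annotated symbol begins with Kcn, except the Kcnd, Kcnip, Kcna4, Kcne3 and Kcnq1ot1 probes. The rule gave 94 probes of the 26423 on the array, which stood for 80 of the 17742 genes with a symbol. It used names only and no measured value. RNA was taken from unscarred free wall of the left ventricle of 4 control and 4 Hira CKO mice aged 6 weeks (strain C57BL6/J;129S1/SvImJ), and each mouse was measured on 3 arrays, 24 in all. Control mice were aMHC-cre Tg/+; Hira flox/+ and Hira CKO mice were aMHC-cre Tg/+; Hira flox/-. By the study's methods both groups also carried Rosa26 YFP/+. The aMHC promoter drives Cre in cardiomyocytes, so cardiomyocytes of the controls were left with 1 intact Hira allele, and the other cells of Hira CKO hearts were heterozygous for the deleted allele. HIRA is a chaperone that deposits the histone variant H3.3, and the comparison asked how ventricular expression differed without it.

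Potassium channels let potassium leave the cardiomyocyte and so set its resting potential and end its action potential. Inward rectifiers (Kcnj genes) and 2-pore channels (Kcnk genes) act around rest, voltage-gated channels (Kcna to Kcnh and Kcnq genes) open during the action potential, and calcium-activated channels (Kcnm and Kcnn genes) couple the membrane to calcium. Small accessory proteins, such as the single-span KCNE peptides, and silent subunits that form no channel alone change the gating and traffic of the pore-forming subunits. In mouse ventricle repolarization relies largely on fast voltage-gated currents, whereas in human ventricle the slow and rapid delayed rectifiers carry more of it.

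Values are probe intensities, scaled by the authors so that the median of every array was 513.2. Intensity is not comparable between probes, so levels of different genes were not compared. Sums over a list of markers were set only between genotypes, for the same probes. A gene was called higher or lower in Hira CKO mice at an adjusted p under 0.05 (limma on log2 intensity, Benjamini-Hochberg over all 17742 genes, n = 4 mice per group). Between 0 and 2535 probes of an array had values under 1. Of the 2 arrays with more than 1000, 1 was of control mouse 2 and 1 of Hira CKO mouse 3 (mice are numbered 1 to 4 within a group in the order of the labels), and 3 and 10 potassium channel probes were under 1 on them. The dim end of the arrays was lower in Hira CKO mice, with a 5th percentile of 23.8 ± 10.1 (SD, n = 4) beside 43.0 ± 8.61 (SD, n = 4) in controls (exact permutation test, 2-sided, p = 0.0571, the smallest possible being 0.0286). Hira itself read 209.7, 206.9, 252.1 and 256.3 in control mice 1 to 4 and 229.9, 207.5, 200.8 and 168.0 in Hira CKO mice 1 to 4, so the groups overlapped. Where its probe lies relative to the floxed exon is unknown here, and these values do not check the genotype. All values by mouse follow this order.

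Of the 80 genes, 5 were called higher and 7 lower. Kcne4, Kcne2, Kcnj5, Kcnk7 and Kcnk1 rose, and Kcnj12, Kcnv2, Kcnmb1, Kcnk5, Kcns1, Kcnk10 and Kcnq5 fell. The 12 called genes were 15% of the group, against 14.6% of all genes called, of which 4.94% were higher and 9.65% lower. The 4 mice of 1 genotype all lay above the 4 of the other for 15 of the 80 genes, 18.75%, against 23.4% of all genes. The median log2 fold change of the 80 genes was −0.20, and that of all genes was −0.14. As a group, potassium channel genes were thus called about as often as genes at large, and the results are those of single genes. The study's methods set p under 0.05 and a log2 fold change of 1 or more, and do not say whether p was adjusted. Here p was from limma without adjustment, and fold changes of either sign counted. The methods also selected genes without a fold change by their intensity difference, which was not applied here. At these thresholds 1 of the 80 genes was higher and 6 were lower, beside 868 of all 17742 genes (4.89%) in either direction. The higher one was Kcnk7, and of those lower only Kcnv2 had a mean above the array median. The others, Kcns1, Kcnj9, Kcnj13, Kcnmb3 and Kcnv1, were between −0.54 and −0.13 after quantile normalization, which gives all arrays the same distribution of values.

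Much of the lean towards lower values lay at the dim end of the arrays. Of the 49 genes with a mean under the array median, 43 had a negative log2 fold change and their median was −0.27, beside −0.30 for all dim genes. After quantile normalization, which gives all arrays the same distribution of values, 28 of these 49 were negative and their median was −0.04. The calls among them went from 1 higher and 5 lower, beside 15.5% of all dim genes, to 3 higher and 0 lower, beside 8.41%. The 31 genes at or above the array median had 15 positive and 16 negative values and a median of −0.01 as deposited. Of these 31, 4 were called higher and 2 lower under either scaling, 19.35%, beside 14.0% of all genes in that range as deposited and 15.3% after quantile normalization. The groups did not overlap for 7 of the 31 as deposited (24.1% of all genes in that range) and for 8 after quantile normalization (24.7%). The split at the array median was chosen after the values were seen. Over all 80 genes quantile normalization gave 7 called higher and 2 lower, 11.25% against 12.5% of all genes (7.05% higher and 5.48% lower), and groups that did not overlap for 16, 20.0% against 20.7%. The 7 genes called under both scalings were 58.3% of those called as deposited and 77.8% of those called after quantile normalization.

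**Figure D1:**
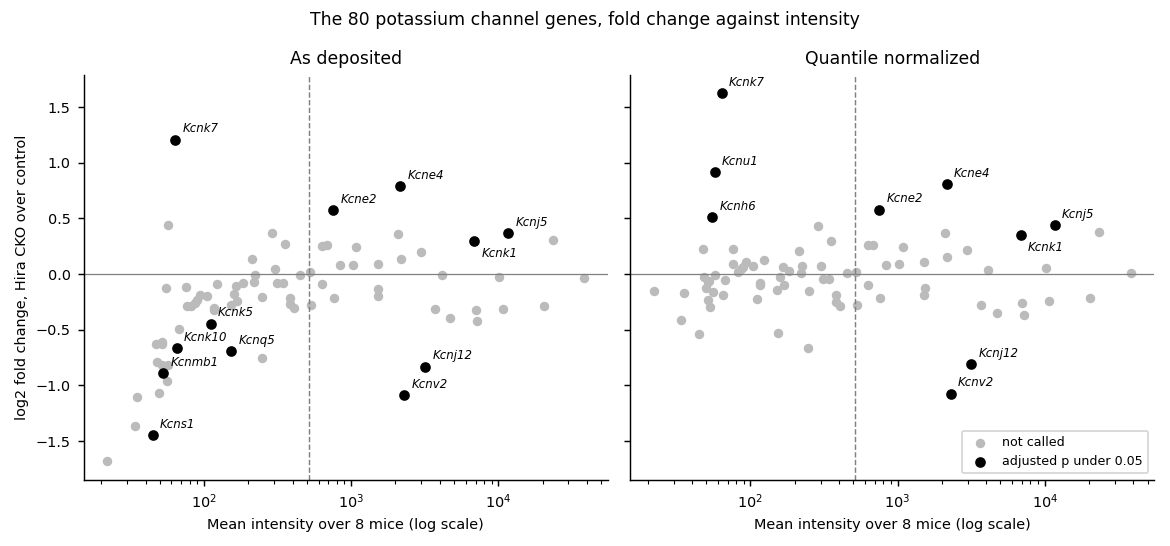
Log2 fold change (Hira CKO over control) of each of the 80 potassium channel genes against its mean intensity over the 8 mice (log scale), as deposited on the left and after quantile normalization on the right. The dashed line is the array median of 513.2, and black points were called. Left of the line 43 of 49 points lie below 0 as deposited and 28 of 49 after quantile normalization, while the 6 black points to its right are the same genes in both panels.

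The accessory KCNE peptides held the 2 rises that were called under the most settings. Kcne4 encodes a peptide that inhibits KCNQ1 and some Kv1 channels, and Kcne2 encodes one that associates with ERG, KCNQ1 and other voltage-gated channels. The RefSeq promoter windows of these 2 genes and of the called inward rectifiers Kcnj5 and Kcnj12 are shown as the sequences beside 3 genes that rose and 1 that fell. Each spans 250 bases before to 50 after the RefSeq start (GRCm38.p6), 5′ to 3′ on the strand of the gene, and capitals mark matches to the E box CACGTG or the GC box GGGCGG on either strand. Kcne4 lies at chr1:78816661-78816960 (plus strand), Kcne2 at chr16:92292139-92292438 (plus, the first of 2 windows), Kcnj5 at chr9:32344295-32344594 (minus) and Kcnj12 at chr11:61065554-61065853 (plus).
Kcne4: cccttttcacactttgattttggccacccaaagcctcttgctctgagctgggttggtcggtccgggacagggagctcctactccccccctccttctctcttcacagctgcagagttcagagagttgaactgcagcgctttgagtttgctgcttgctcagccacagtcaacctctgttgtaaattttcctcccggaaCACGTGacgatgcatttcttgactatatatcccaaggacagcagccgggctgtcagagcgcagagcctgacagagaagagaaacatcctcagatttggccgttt
Kcne2: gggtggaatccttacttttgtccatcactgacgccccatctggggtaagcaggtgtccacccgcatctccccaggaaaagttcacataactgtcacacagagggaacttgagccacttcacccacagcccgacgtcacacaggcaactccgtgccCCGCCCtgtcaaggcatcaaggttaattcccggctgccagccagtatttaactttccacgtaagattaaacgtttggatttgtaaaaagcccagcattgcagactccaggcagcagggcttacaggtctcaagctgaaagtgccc
Kcnj5: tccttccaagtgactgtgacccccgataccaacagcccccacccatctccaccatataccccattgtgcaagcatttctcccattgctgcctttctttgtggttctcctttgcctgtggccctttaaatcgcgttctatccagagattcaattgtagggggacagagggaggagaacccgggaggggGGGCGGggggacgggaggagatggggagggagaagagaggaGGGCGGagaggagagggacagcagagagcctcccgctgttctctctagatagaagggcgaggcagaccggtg
Kcnj12: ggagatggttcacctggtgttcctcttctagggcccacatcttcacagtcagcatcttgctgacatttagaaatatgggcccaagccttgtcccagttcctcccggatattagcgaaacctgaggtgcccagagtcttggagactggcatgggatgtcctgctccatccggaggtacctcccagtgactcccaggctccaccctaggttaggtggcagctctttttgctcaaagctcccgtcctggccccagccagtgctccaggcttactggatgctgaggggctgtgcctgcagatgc
Kcne4 had 1 E box and 9 CpG sites, and the Kcne2 window had 1 GC box and 9 CpG sites. Kcnj5, which rose, had 2 GC boxes and 10 CpG sites, and Kcnj12, which fell, had 4 CpG sites and none of the 4 motifs searched. These were the TATA box (TATAAA), the GATA motif (AGATAA), the GC box and the E box, each on both strands, and no motif is contained in another. Of the 80 genes 60 matched the table, with 79 windows. GC boxes were in 46.8% of these windows and in 35.7% of all 32851, E boxes in 8.86% and 7.15%, TATA boxes in 6.33% and 13.6%, and GATA motifs in 2.53% and 11.2%. The matches describe letters in the window and show no binding.

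Kcne4 intensity was 1548, 1424, 1572 and 1740 in control mice and 2434, 2883, 3294 and 2397 in Hira CKO mice. Every Hira CKO mouse was above every control mouse, and the gene rose by 0.79 ± 0.12 on the log2 scale (SE, limma adjusted p = 0.00668), or 1.73-fold. It rose by 0.89, 0.65 and 0.83 when only array number 1, 2 or 3 of each mouse was used. It was called under all 22 other settings that change the fit. Kcne2 was 560.4, 587.8, 619.6 and 637.4 in control mice and 1043, 766.7, 881.9 and 927.5 in Hira CKO mice. Here too the genotypes were apart in all mice, and the rise of 0.58 ± 0.11 (SE, limma adjusted p = 0.0134), 1.49-fold, was called under all 22 other settings. These settings do not include other thresholds. At an adjusted p under 0.01 Kcne4 stayed called and Kcne2 did not, and neither reached the methods' log2 fold change of 1.

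Kcne1, whose product joins KCNQ1 in the slow delayed rectifier, had intensities of 295.6, 396.0, 319.6 and 220.6 in control and 218.4, 219.0, 181.4 and 119.5 in Hira CKO mice. The groups did not overlap, but by a narrow margin of 220.6 against 219.0. Its log2 fold change of −0.75 ± 0.23 (SE) missed the threshold in limma (adjusted p = 0.0595), and 6 of the 22 other settings called it. Kcne1l, the remaining KCNE gene of the group, had a log2 fold change of −0.28 (limma adjusted p = 0.113) at low intensities of 114.4 to 179.1.

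**Figure D2:**
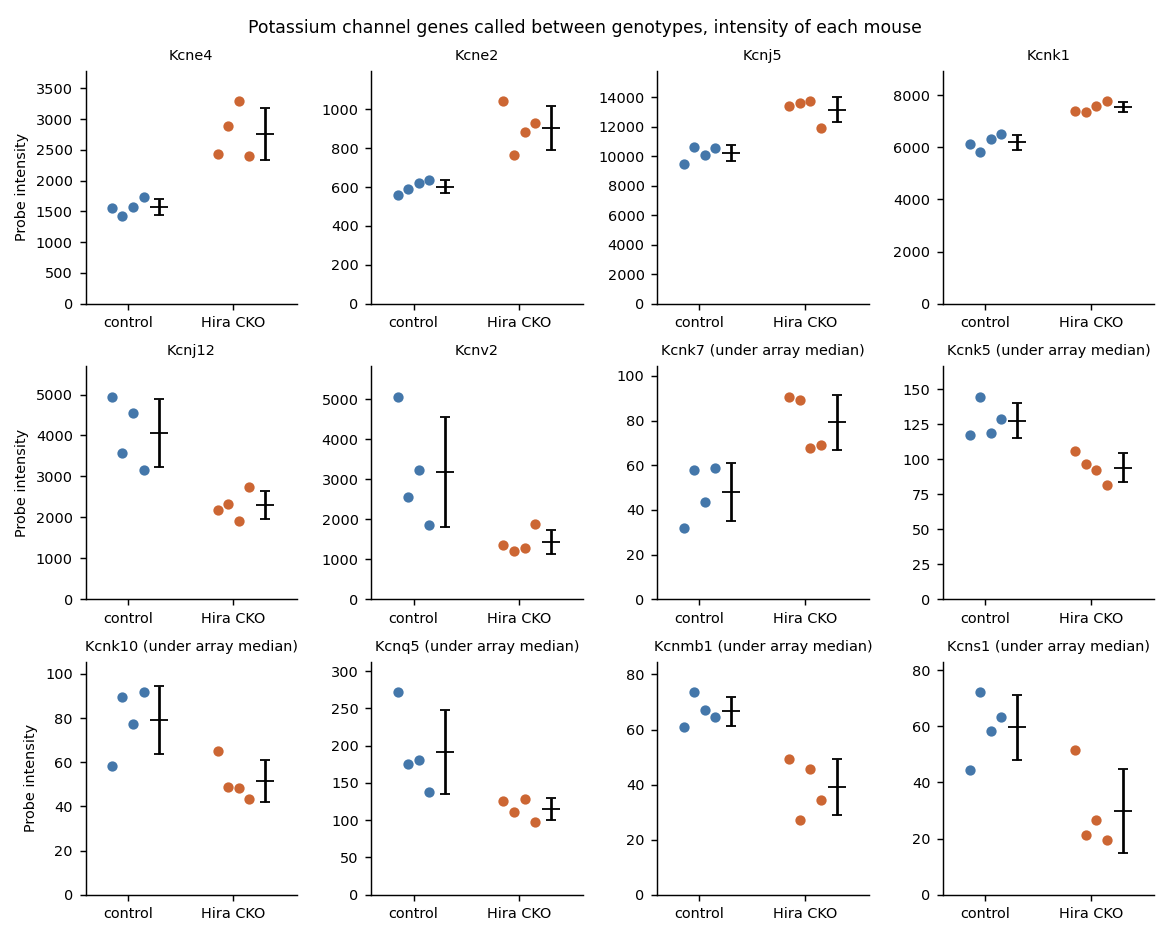
Probe intensity of each mouse (points, mean of its 3 arrays) for the 12 called genes in 4 control and 4 Hira CKO mice, with the mean and SD of each group beside the points. The first 6 panels are genes at or above the array median, where Kcne4, Kcne2, Kcnj5, Kcnk1 and Kcnj12 show no overlap and Kcnv2 overlaps at 1846 against 1883.

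Among inward rectifiers of the Kir2 family, which carry the current IK1 that holds the resting potential, Kcnj12 fell and the other 3 were not called. Kcnj12, the gene of Kir2.2, was 4951, 3582, 4538 and 3167 in control and 2171, 2335, 1922 and 2737 in Hira CKO mice. The lowest control mouse was above the highest Hira CKO mouse, and the log2 fold change was −0.83 ± 0.17 (SE, limma adjusted p = 0.0165), a 1.78-fold fall. It was called under 21 of 22 other settings and lost without control mouse 3 (adjusted p = 0.0548, limma).

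Kcnj2 encodes Kir2.1, the main IK1 subunit of mouse ventricle. Its intensity was 20100, 24050, 22030 and 22910 in control and 20880, 14080, 19040 and 20660 in Hira CKO mice. The groups overlapped, Hira CKO mouse 2 was the lowest, and the log2 fold change of −0.28 had a 95% interval from −0.60 to 0.03 (limma adjusted p = 0.169). Kcnj14 (Kir2.4) was 3265, 5583, 5944 and 6687 against 5188, 3575, 3038 and 4476, with a log2 fold change of −0.39 (95% interval −0.95 to 0.17, limma adjusted p = 0.274). Kcnj4 (Kir2.3) was 2375, 1980, 2085 and 1896 against 2598, 2277, 2211 and 1965, with 0.13 (95% interval −0.16 to 0.43, limma adjusted p = 0.473). Both genes overlapped widely between genotypes.

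The muscarinic potassium current IKACh, prominent in atrial and nodal cells, is formed by Kir3.1 (Kcnj3) and Kir3.4 (Kcnj5). Kcnj5 intensity was 9474, 10620, 10120 and 10600 in control and 13420, 13660, 13760 and 11900 in Hira CKO mice. All 4 Hira CKO mice were above all control mice, and the log2 fold change was 0.36 ± 0.09 (SE, limma adjusted p = 0.0306), or 1.29-fold. The call held under 15 of 22 other settings, both other normalizations among them. Of the 8 fits that left out 1 mouse only those without Hira CKO mouse 1 or 4 kept it (adjusted p up to 0.13 over all settings, limma).

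Its partner Kcnj3 was 622.6, 591.2, 669.6 and 647.1 in control and 454.8, 403.4, 870.5 and 785.3 in Hira CKO mice. The control mice lay close together and the Hira CKO mice on both sides of them, 2 below and 2 above. The log2 fold change was −0.09 with a 95% interval from −0.64 to 0.46 (limma adjusted p = 0.819). Kcnj6 (Kir3.2) gave 0.24 for its brightest probe (limma adjusted p = 0.261), and Kcnj9 (Kir3.3), at 10.94 to 55.71, had −1.37 (limma adjusted p = 0.0503) as deposited and −0.42 after quantile normalization.

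Markers of atrial tissue were not uniform in these samples. Of 7 measured markers, Nppa (log2 fold change 1.74, limma adjusted p = 0.000479) and Dkk3 (1.06, adjusted p = 0.0227) rose, and Tbx5 fell by 0.72 (adjusted p = 0.0155). The called markers were 42.86% of the list, beside 14.6% of all genes. The list's summed intensity ranged from 117600 to 168200 in control and from 372400 to 401000 in Hira CKO mice, most of it from Nppa, a gene that stressed ventricle also expresses. Without Nppa the sum of the other 6, Kcna5 and Kcnk3 included, was 30150 to 40330 in control and 25950 to 31520 in Hira CKO mice, and in such sums the brightest probes weigh most. Sln, an atrial gene in mouse, was 350.4, 135.3, 1577 and 231.0 in control and 5133, 132.4, 379.7 and 1746 in Hira CKO mice. It was thus high in 1 control and 2 Hira CKO mice. In the order of the Hira CKO mice Kcnj5 was 13420, 13660, 13760 and 11900, and a relation to Sln was not tested. In bulk tissue fewer cells of a type and less RNA per cell cannot be told apart.

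ATP-sensitive channels combine a Kir6 pore with a sulfonylurea receptor. Kcnj11 (Kir6.2, the cardiomyocyte pore) was 18220, 18610, 23800 and 23520 in control and 23400, 23850, 28360 and 27660 in Hira CKO mice. The highest controls overlapped the lowest Hira CKO mice, and the log2 fold change of 0.30 (95% interval 0.01 to 0.59) was not called (limma adjusted p = 0.127). After quantile normalization the log2 fold change was 0.38 and the groups did not overlap, but Kcnj11 was still not called (limma adjusted p = 0.0536). A second, dim Kcnj11 probe had −0.22 as deposited and 0.02 after quantile normalization.

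Kcnj8 (Kir6.1, the pore of vascular smooth muscle and pericytes) was 7377, 9936, 8795 and 7030 in control and 6166, 6153, 6547 and 5587 in Hira CKO mice. The genotypes did not overlap, and the log2 fold change of −0.43 ± 0.12 (SE) was just over the threshold (limma adjusted p = 0.0505) and called under 7 of 22 other settings. The receptor genes Abcc8 (−0.27, limma adjusted p = 0.192) and Abcc9 (−0.29, limma adjusted p = 0.0661) were not called, 0 of 2. Of 11 measured smooth muscle and pericyte markers, Kcnj8 and Abcc9 included, 9 had negative log2 fold changes and none was called lower. The 1 called higher was Acta2, by 0.87 (limma adjusted p = 0.0166), a gene that stressed cardiomyocytes can also express. Acta2 made up 9.09% of the list, beside 4.94% of all genes called higher. The summed intensity of the 11 markers, in which the brightest probes weigh most, was 188400 to 233700 in control and 229800 to 301500 in Hira CKO mice. Without Acta2 the sum of the other 10, Kcnj8 and Abcc9 among them, was 105900 to 122900 in control and 91540 to 103700 in Hira CKO mice. Lower in all Hira CKO mice were 4 of the 11 markers, beside 2766 of all 17742 genes. These 4 were Kcnj8 and Abcc9 themselves, Cspg4 and Smtn. Cnn1 was under 100 in mean intensity, and the part of these cells in the values of Kcnj8 was not tested. The 5 other Kir genes of the group, Kcnj1, Kcnj10, Kcnj13, Kcnj15 and Kcnj16, lay under the array median and none was called (log2 fold changes −1.07 to −0.01).

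Background potassium channels with 2 pore domains were represented by 13 genes, of which 2 were called higher and 2 lower. These were 30.77%, beside 14.6% of all genes. After quantile normalization 2 were called higher and 0 lower, 15.38% beside 12.5% of all genes. Kcnk1 encodes TWIK-1, and its intensity was 6109, 5822, 6300 and 6503 in control and 7402, 7350, 7593 and 7769 in Hira CKO mice. The groups were well apart relative to their spread, and the rise was small, 0.30 ± 0.08 on the log2 scale (SE, limma adjusted p = 0.0388), or 1.23-fold. It was called under 8 of 22 other settings, both other normalizations among them. Leaving out any mouse but Hira CKO mouse 1 ended the call (adjusted p up to 0.111 over all settings, limma).

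Kcnk2 encodes TREK-1, a stretch-sensitive channel of ventricular myocytes. It was 44910, 37910, 36500 and 35030 in control and 36800, 36460, 39260 and 39940 in Hira CKO mice. The values overlapped fully, with a log2 fold change of −0.03 (95% interval −0.27 to 0.20, limma adjusted p = 0.845). Kcnk3 (TASK-1, an acid-sensitive channel with more expression in human atrium than ventricle) was 11150, 9913, 8984 and 10910 against 8531, 11700, 10330 and 9850, with −0.02 (95% interval −0.30 to 0.25, limma adjusted p = 0.903). For both genes the interval stayed within 0.30 on the log2 scale in either direction.

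The other 3 called Kcnk genes were dim. Kcnk7, a TWIK relative not known to form a channel alone, was 31.72, 57.76, 43.75 and 58.92 in control and 90.73, 89.03, 67.57 and 69.21 in Hira CKO mice. It rose by 1.21 ± 0.32 (SE, limma adjusted p = 0.0385), but 1 control array was under 1 and array numbers 1, 2 and 3 alone gave 2.31, 0.85 and 0.46. Kcnk5 (TASK-2) was 117.2, 144.7, 119.0 and 128.8 against 106.0, 96.36, 92.08 and 81.71, with −0.45 ± 0.11 (SE, limma adjusted p = 0.0330). Kcnk10 (TREK-2) was 58.18, 89.35, 77.39 and 91.73 against 65.01, 48.87, 48.34 and 43.51, with −0.67 ± 0.19 (SE, limma adjusted p = 0.0490), and unlike the other 2 its groups overlapped. Quantile normalization left Kcnk7 called at 1.63, while Kcnk5 (−0.23) and Kcnk10 (−0.19) were no longer called. Kcnk7 was called under 8 of the 21 other settings that include it, Kcnk5 under 6 of 22 and Kcnk10 under 5 of 21. Leaving out any array number, or the 2 arrays with most values under 1, ended the call of Kcnk7. Of the fits that left out 1 mouse, Kcnk7 kept its call only without Hira CKO mouse 1 or control mouse 4, Kcnk10 only without Hira CKO mouse 1 or control mouse 1, and Kcnk5 only without Hira CKO mouse 1.

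**Figure D3:**
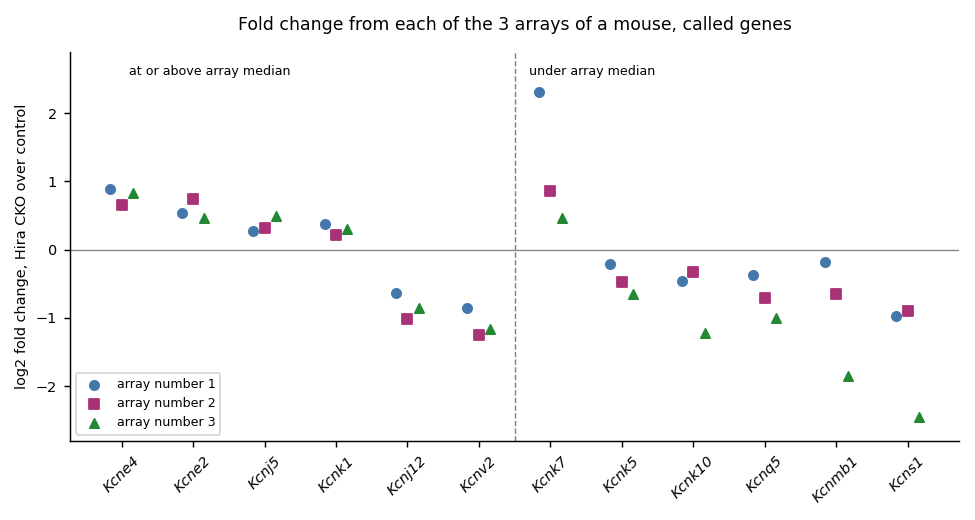
Log2 fold change (Hira CKO over control) of the 12 called genes computed from array number 1, 2 or 3 of every mouse alone. The 6 genes at or above the array median keep similar values across the 3 arrays, whereas Kcnk7 ranges from 0.46 to 2.31 and Kcnmb1 from −1.84 to −0.18.

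None of the pore-forming genes of cardiac delayed rectifiers described here was called. Kcnq1 (Kv7.1, the slow delayed rectifier pore) was 7482, 8467, 7843 and 6943 in control and 7589, 4060, 6360 and 7365 in Hira CKO mice, with a log2 fold change of −0.32 (95% interval −0.75 to 0.12, limma adjusted p = 0.252). Kcnh2 (ERG1, the rapid delayed rectifier pore) was 13260, 11360, 13190 and 9714 against 10170, 7176, 9799 and 11340, with −0.32 (95% interval −0.69 to 0.05, limma adjusted p = 0.191). In both genes the lowest value was that of Hira CKO mouse 2, which was also lowest for Kcnj2. Hira CKO mouse 3 was also below every control for Kcnq1, and the groups overlapped in both genes.

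Kcna5 (Kv1.5, a pore of the fast delayed rectifier IKur in mouse ventricle) was 5415, 3154, 3928 and 3823 in control and 3607, 2479, 2728 and 4470 in Hira CKO mice. The groups overlapped, with −0.31 at this probe (95% interval −0.81 to 0.19, limma adjusted p = 0.325) and −0.49 at the second, dimmer probe. Kcna1 (Kv1.1) was 1879, 1675, 1289 and 1540 against 1620, 1391, 1122 and 1696, with −0.14 (95% interval −0.50 to 0.23, limma adjusted p = 0.564). Kcna2 (Kv1.2) was 266.6, 293.5, 222.2 and 283.8 against 227.9, 264.7, 192.5 and 238.1, with −0.21 (95% interval −0.50 to 0.08, limma adjusted p = 0.263). None of the 7 Kv1 genes was called, the log2 fold changes running from −0.31 to 0.37.

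The cytoplasmic Kv beta subunits, which bind Kv1 channels, were not called either. Kcnab1 was 579.6, 531.4, 635.1 and 570.4 in control and 557.2, 534.4, 488.3 and 354.7 in Hira CKO mice, with a log2 fold change of −0.28 (95% interval −0.61 to 0.05, limma adjusted p = 0.198). Kcnab2 was 379.2, 434.6, 463.4 and 521.2 against 504.0, 399.8, 367.2 and 532.7, with −0.0048 (95% interval −0.35 to 0.34, limma adjusted p = 0.986). Hira CKO mouse 4 was the lowest of all 8 for Kcnab1 and the highest for Kcnab2.

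Silent voltage-gated subunits, which only join Kv2 channels and modify them, gave 2 falls among 10 genes, 20.0% beside 9.65% of all genes called lower. All 10 log2 fold changes were negative (median −0.73), beside 12033 of all 17742 genes. All but Kcnv2 and Kcng2 were dim, and of all 7159 genes under the array median 5777 were negative. After quantile normalization 7 of the 10 were negative with a median of −0.09, beside 9339 of all genes. Kcnv2 encodes Kv8.2 and is best known from a human cone dystrophy. Its intensity was 5062, 2565, 3219 and 1846 in control and 1351, 1207, 1292 and 1883 in Hira CKO mice. The control mice spread widely, and the lowest of them, mouse 4, was just below the highest Hira CKO mouse, also numbered 4. The log2 fold change was −1.09 ± 0.29 (SE, limma adjusted p = 0.0401), a 2.12-fold fall, which changed to −1.07 after quantile normalization. It was called under 14 of 22 other settings. The call was lost without control mouse 1, 2 or 3 or Hira CKO mouse 2 or 3. Kcnv2 and Kcnj12 had the same highest control mouse (1), the same lowest control mouse (4) and the same highest Hira CKO mouse (4).

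Kcns1 (Kv9.1) was dim at 44.47, 72.20, 58.27 and 63.48 in control and 51.67, 21.43, 26.46 and 19.48 in the knockouts. The log2 fold change of −1.44 ± 0.41 (SE, limma adjusted p = 0.0475) was largest on array number 3, which alone gave −2.46 beside −0.98 and −0.90, and it became −0.54 and uncalled after quantile normalization. Leaving out any mouse but Hira CKO mouse 1 also ended the call. Kcng2 (Kv6.2), the remaining silent subunit above the array median, had −0.01 (limma adjusted p = 0.981).

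Kcnq5 (Kv7.5, known from neurons and vascular smooth muscle) was 271.9, 175.1, 181.4 and 138.3 in control and 126.2, 110.4, 128.9 and 96.96 in Hira CKO mice. The genotypes did not overlap, and the log2 fold change was −0.69 ± 0.20 (SE, limma adjusted p = 0.0496) as deposited and −0.53, uncalled, after quantile normalization. With 1 mouse left out, only the fits without Hira CKO mouse 1 or control mouse 4 called it. Kcnq3 was not called (−0.22). Of the 8 EAG, ERG and ELK genes none was called as deposited. Kcnh7 (ERG3) was higher in every Hira CKO mouse, 3060, 3284, 3199 and 3068 against 2946, 2937, 2555 and 2857, without passing the test (log2 fold change 0.20, limma adjusted p = 0.153), and was named after its values were seen. Kcnh6 (ERG2), under 100 in every mouse, went from −0.13 to 0.51 and a call under quantile normalization. The Kv3 genes and Kcnb2 were not called, 0 of 3 and 0 of 1.

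**Figure D4:**
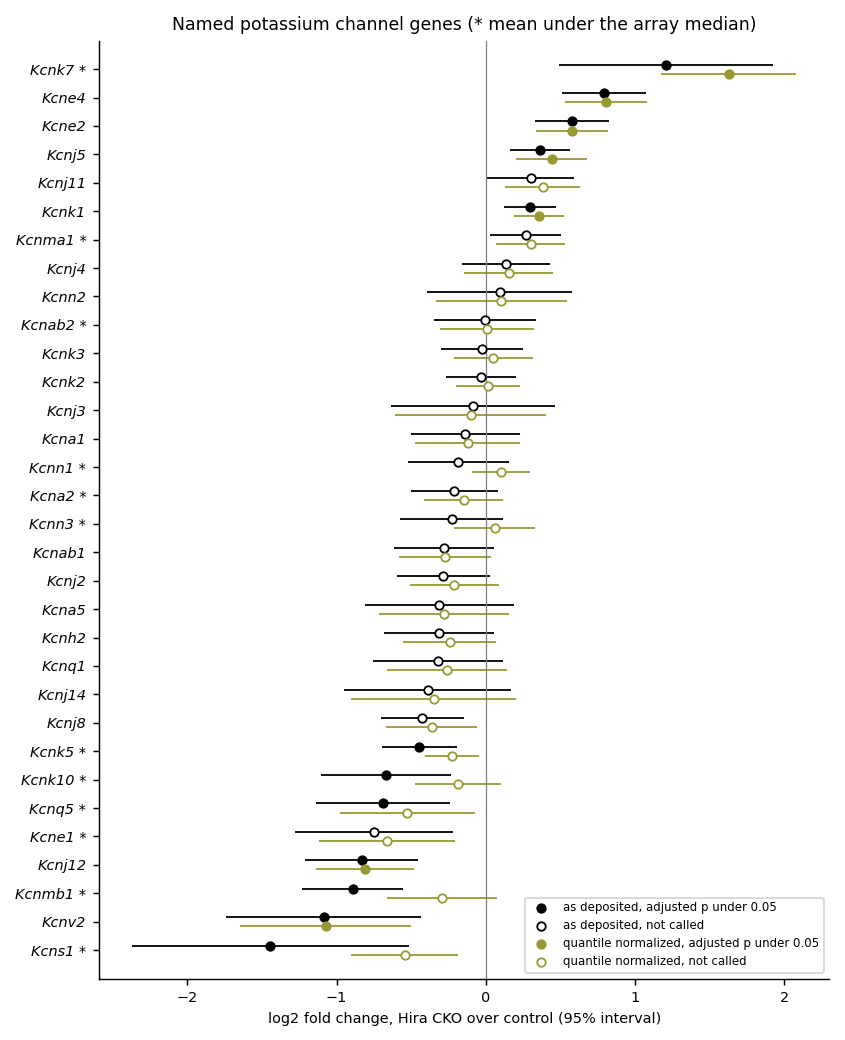
Log2 fold change (Hira CKO over control, points) with its 95% interval (lines) for the 32 genes with a call or a textbook cardiac current, as deposited (black) and after quantile normalization (olive), filled where the adjusted p was under 0.05 and starred where the mean intensity was under the array median. Kcne4, Kcne2, Kcnj5, Kcnk1, Kcnj12 and Kcnv2 have nearly the same value in both, and Kcnmb1 moves from −0.89 to −0.29.

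Calcium-activated channels gave 1 fall. Kcnmb1, the beta1 subunit of the BK channel and a gene of vascular smooth muscle, was 60.83, 73.60, 67.11 and 64.68 in control and 49.23, 27.21, 45.68 and 34.39 in Hira CKO mice. All Hira CKO mice were lower, with a log2 fold change of −0.89 ± 0.15 (SE, limma adjusted p = 0.00857). Array numbers 1, 2 and 3 alone gave −0.18, −0.65 and −1.84, and after quantile normalization the value was −0.29 and was not called. Leaving out any 1 mouse kept the call, and leaving out array number 3 or the 2 arrays with most values under 1 ended it. The smooth muscle marker values given with Kcnj8 stand beside this gene too, and their part in it was not tested. Kcnma1, the BK pore, was 369.5, 277.5, 319.5 and 327.6 against 397.7, 400.7, 374.9 and 368.8, so that 3 of 4 Hira CKO mice were above all controls, with 0.27 (95% interval 0.03 to 0.50, limma adjusted p = 0.104).

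The small-conductance channels, of which SK2 (Kcnn2) is known from atrial and ventricular myocytes, were not called. Kcnn2 was 1964, 1376, 1183 and 1340 in control and 1733, 1185, 1294 and 2092 in Hira CKO mice, with a log2 fold change of 0.09 (95% interval −0.39 to 0.58, limma adjusted p = 0.780). Kcnn1 (SK1) was dim at 93.96, 107.1, 97.91 and 95.85 against 114.5, 85.40, 73.38 and 76.97, with −0.19 (95% interval −0.52 to 0.15, limma adjusted p = 0.387). Kcnn3 (SK3) was 90.70, 110.2, 79.43 and 105.6 against 102.7, 65.75, 73.57 and 83.29, with −0.23 (95% interval −0.57 to 0.11, limma adjusted p = 0.294). All 3 overlapped between genotypes. Kcnu1 (SLO3, a sperm channel) was not called as deposited (0.44) and was called after quantile normalization (0.92), at intensities of 41.85 to 76.29. The sodium-activated channels Kcnt1 and Kcnt2 and the regulator Kcnrg were not called.

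When each of the 94 probes was tested on its own, 12 were called, beside 14.2% of all probes with a symbol. Of the 80 genes, 10 had more than 1 probe, and the dimmer probes of Kcnj6 (−0.66) and Kcnt1 (−0.59) were called lower where the brighter probes were not. Both calls were lost after quantile normalization, at −0.11 and −0.15. Kcnk10 and Kcnq5, each with 1 probe, just missed the threshold when adjusted over all probes (adjusted p = 0.0505 and 0.051, limma). After quantile normalization 9 of the 94 were called, beside 11.8% of all probes.

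Genes that act with these channels were counted in the same way. Of 27 measured scaffold and trafficking genes, Gja1, the main ventricular gap junction gene, rose by 0.43 (limma adjusted p = 0.0468) and the desmosomal Pkp2 fell by 0.43 (limma adjusted p = 0.0421), with a list median of −0.07. These were 7.41% of the list, beside 14.6% of all genes called. The call of Pkp2 was lost after quantile normalization, and without the 2 arrays with most values under 1 neither gene was called. Of 23 measured transcription regulators, 0 rose and 4 fell: Tbx5 by 0.72 (limma adjusted p = 0.0155), Irx4, a ventricular homeobox gene, by 0.63 (adjusted p = 0.0313), Sp1 by 0.44 (adjusted p = 0.0374) and the dim Etv1 by 0.86 (adjusted p = 0.0420). These were 17.39% of the list, beside the 9.65% of all genes called lower, and the list median was −0.18. After quantile normalization Etv1 was at −0.31 and no longer called, which left 3 of 23. That was 13.04%, beside 5.48% of all genes called lower. Beside these, Kcnd3 (Kv4.3), left out by the rule, went from 1401 to 1742 in control mice to 214.9 to 347.1 in the knockouts, −2.58 on the log2 scale (limma adjusted p = 4.79e-05). Of the 9 transient outward current genes measured, 2 were called lower (22.22%, beside 9.65% of all genes) and 0 higher. The second was the dim Kcnip1, whose groups overlapped (−0.46, limma adjusted p = 0.0486). After quantile normalization Kcnip1 was at 0.0036 and not called. None of the 7 measured cardiomyocyte markers was called, nor any of 8 endothelial, 9 fibroblast, 6 lymphocyte and 2 erythroid markers. Of 7 macrophage markers Cd68 rose by 0.70 (limma adjusted p = 0.0272), and of 8 Schwann cell and neuron markers Mbp rose by 0.89 (adjusted p = 0.0101) and Dbh fell by 1.11 (adjusted p = 0.0103). Of 8 conduction system markers the dim Hcn4 fell by 1.46 (limma adjusted p = 0.0354), and of 6 skeletal muscle markers Tnnc2 fell by 0.74 (adjusted p = 0.0311) and the dim Pax7 by 0.39 (adjusted p = 0.0424, lost after quantile normalization).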

How the data were processed

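Per the labels, 8 mice gave RNA for 3 single-colour arrays each. The authors deposited linear intensity values of the probes after median scaling of each array, and values below 0 show that background had been subtracted, by a method not stated in the paper or labels. Deposited intensity values under 1 were set to 1, log2 was taken and arrays were averaged by mouse, the unit of replication. Symbols of 20377 probes were updated with RefSeq's GRCm38.p6 table (18213 official, 2126 synonyms, 38 kept as given), and 6046 probes had none. A gene with several probes (2278 genes) was read from the brightest. All 94 potassium channel probes had official symbols.

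Hira CKO mice were set against controls in limma 3.58.1 (R 4.3.3, lmFit and eBayes without covariates), p-values were adjusted by Benjamini-Hochberg over 17742 genes, and they cover the spread between these mice. The labels do not state separate litters. Values by mouse were given for every called gene and for genes with a textbook cardiac current. The members and lists were chosen with earlier results of these data known, and lists were described by counts and medians alone. On simulated data for this comparison over 17742 genes the fit recovered 38% of genes raised 1.5-fold, 62% of those raised 2-fold and 96% of those raised 4-fold, with 7 false calls. The simulation drew genes independently, changed 50 at each size and had no difference between groups at the dim end. In the data 2588 genes were called and the dim end differed, so these rates need not hold for the calls given here.

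Tried as alternatives were 2 other normalizations (quantile, cyclic loess), an offset of 50 before log2, leaving out genes under 100, averaging all probes, an intensity trend with robust prior, the methods' t-test, blocks for the mouse, the array number or adjacent mouse numbers, omission of each mouse and of each array number, and other thresholds. The methods' t-test is the Student's t-test that the study names for 2 groups, though not for its arrays, here with adjusted p-values. Leaving out the 2 arrays with over 1000 values under 1 was added after seeing the data. Deviations of mice with adjacent numbers correlated at 0.24, −0.02, 0.04 and 0.25, and the labels do not pair them. Sex was not analysed here, nor were genes without a named probe. Tables and plots were made in Python 3.11.15 (pandas 2.3.3, matplotlib 3.10.9).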

Additional observations from a re-analysis of the deposited data

How the results depend on the processing

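Kcne4 and Kcne2 stayed called in the same direction under all 22 alternatives that change the fit. The count of members called higher, 5 as deposited, was 3 without array number 1 or 2, 2 without array number 3, 3 without the 2 arrays with most values under 1, 3 with the mouse as a random block, 3 with the replicate block (array number), 1 at an adjusted p under 0.01, 1 at the methods' thresholds, and 2 to 5 without 1 mouse. The count called lower, 7, was 2 without array number 2, 1 without array number 3, 4 without those 2 arrays, 2 after cyclic loess or quantile normalization, 2 in the methods' t-test, 13 with an offset of 50, 1 at 0.01 and 18 at 0.10. It ranged from 1 without control mouse 3 to 22 without Hira CKO mouse 1. Shares of all genes called were taken only as deposited, after quantile normalization and at the methods' thresholds. The other counts therefore do not tell whether members moved more than genes at large. The replicate block gave 5 lower. Array numbers did not pair the samples (deviations correlated at −0.69, 0.14 and −0.69), and adjacent mouse numbers as a block gave 4 higher and 8 lower. Groups did not overlap for 15 members, for 7 without array number 3, and for 17 to 31 without 1 mouse (31 without Hira CKO mouse 1, 23 without control mouse 1). Leaving out a mouse can only keep or raise this count. Its share over all genes was taken as deposited and after quantile normalization alone. The median log2 fold change of −0.20 became −0.10 without array number 3, −0.0099 after cyclic loess, −0.0842 with dim genes left out and −0.0138 after quantile normalization. Scaffold genes called, 2, were 1 after cyclic loess and 0 without the 2 arrays. Transient outward genes called, 2, were 1 after quantile or cyclic loess normalization and 1 without the 2 arrays.

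Of the named members that changed sign, none was called as deposited. Kcnab2 was 0.0316 without array number 2, 0.0087 without the 2 arrays, 0.0054 after cyclic loess, 0.0061 after quantile normalization and −0.0909 to 0.0881 without 1 mouse. Kcnk2 was 0.0460 without array number 2, 0.0577 after cyclic loess, 0.0138 after quantile normalization and −0.0794 to 0.0439 without 1 mouse. Kcnk3 was 0.0268 without array number 1, 0.0481 after cyclic loess, 0.0502 after quantile normalization and −0.0973 to 0.0532 without 1 mouse. Kcnn1 was 0.0013 without array number 3, 0.17 after cyclic loess and 0.10 after quantile normalization, where Kcnn3 was 0.14 and 0.0608. Without 1 mouse Kcnj3 ranged from −0.27 to 0.10 and Kcnn2 from −0.0556 to 0.24. The cause of these changes was not tested. Of 698 values of the 32 named members, 547 kept direction and call, 110 lost and 14 gained a call, and 27 changed sign. Only values of the 12 called members could lose a call, so the 110 are to be read against those alone. The 547 include members that were called under no setting. Precision was lower at the dim end: the SD between arrays of a mouse had a median of 0.326 (log2) for members under the array median and 0.170 for the others.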
